A study of Mus musculus with 4 samples.

Results

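Expression of 5 genes that sense cellular iron or carry it into mitochondria was followed in induced regulatory T (iTreg) cells given extra iron. The genes were chosen by symbol and role: Aco1 and Ireb2, which encode the iron regulatory proteins IRP1 and IRP2, Fbxl5, which encodes the ubiquitin ligase subunit that recognises IRP2, and Slc25a37 and Slc25a28, which encode mitoferrin 1 and mitoferrin 2. They are 5 of the 47729 gene IDs counted, and each of them passed the filter on low counts.

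The samples were CD4 T cells of the spleen of C57BL/6 mice, driven towards Foxp3-expressing iTreg cells in culture. All groups shared the differentiation medium, with 5 µg/mL each of antibodies to IL-4 and IFNγ, 100 U/mL of IL-2 and 5 ng/mL of TGF-β. The FeSO4 group received 50 µM ferrous sulfate and the Mock group received PBS, both for 4 days, with 2 libraries per group. The methods of the study describe naïve cells from spleen and lymph node, activated through CD3 and CD28, and pairs of samples from independent experiments. The labels do not say which libraries form a pair. Apart from a knockout line not used here, the study describes age-matched young adult mice, and both sexes were included. The labels do not give the age or sex behind each library. No sort after culture is described, so the libraries represent whole cultures, and in such bulk samples fewer cells of a type and less RNA per cell cannot be told apart.

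Iron regulatory proteins are RNA-binding proteins that attach to a short stem-loop, the iron-responsive element (IRE), when iron is scarce. In a 5′ UTR the bound protein blocks translation, as for the ferritins, and in the 3′ UTR of the transferrin receptor transcript it protects the RNA from decay. IRP1 doubles as cytosolic aconitase when it holds an iron-sulfur cluster and then no longer binds RNA, whereas IRP2 is destroyed after FBXL5, itself stabilised by iron and oxygen, tags it for the proteasome. These switches are known mainly at the protein level. Mitoferrin 1, abundant in erythroid precursors, and mitoferrin 2, found in most tissues, carry iron through the inner mitochondrial membrane for the synthesis of heme and iron-sulfur clusters.

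Stem-loops of the kind that both iron regulatory proteins bind are shown for 3 transcripts whose levels are described further on. Such elements are the sequence through which IRP1 and IRP2 act on their targets. They were found in GENCODE M1 transcripts (build NCBIM37, mm9) as a C, 5 bases of any kind, the loop CAGTGN with a last base other than G, and 5 bases that pair with those before the loop (G-U pairs allowed), read on the transcript's strand in UTRs only. Capitals mark the loop, and each window is 30 bases long, written 5′ to 3′.
Tfrc 3′ UTR, site a: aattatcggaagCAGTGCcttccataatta
Tfrc 3′ UTR, site b: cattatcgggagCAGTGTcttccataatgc
Tfrc 3′ UTR, site c: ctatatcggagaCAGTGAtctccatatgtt
Tfrc 3′ UTR, site d: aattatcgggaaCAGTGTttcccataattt
Fth1 5′ UTR: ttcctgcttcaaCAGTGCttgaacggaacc
Ftl1 5′ UTR: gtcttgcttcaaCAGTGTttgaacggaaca

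The Tfrc sites a to d lie on the plus strand at chr16:32631305-32631334, chr16:32631684-32631713, chr16:32631749-32631778 and chr16:32631796-32631825. The Fth1 site is at chr19:10057222-10057251 (plus) and the Ftl1 site at chr7:52715148-52715177 (minus). The pattern occurred in a UTR of 99 of 22754 longest coding transcripts (0.435%), 15 of them in the 5′ UTR and 84 in the 3′ UTR. None of the transcript models of Aco1, Ireb2, Fbxl5, Slc25a37 or Slc25a28 held it, which says only that these letters are not in those UTRs. It was also not found in Slc11a2, Epas1, Cdc14a or Cdc42bpa, which are listed among IRE transcripts from general knowledge and, for Epas1, also named as one by the study. The pattern is strict, so known elements of another shape are missed, and further elements in Tfrc are not excluded by it. The study states a higher number of IREs in the 3′ UTR of Tfrc than the 4 found here.

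None of the 5 genes was called at an adjusted p under 0.05 in either direction (edgeR's quasi-likelihood test, Benjamini-Hochberg adjustment over 13732 genes). Over all genes tested, 19.5% were called, 10.6% higher and 8.89% lower in FeSO4. Likewise 0 of 5 met the threshold the study used, a log2 fold change of 0.5 or more in size at an unadjusted p under 0.05. Over all tested genes 10% met it. The p here was that of edgeR, whereas the study took its p from a Wald test in DESeq2. At an unadjusted p under 0.05 alone, 1 of the 5 passed (Fbxl5), against 32.0% of all tested genes. The FeSO4 libraries lay outside the range of the Mock libraries for 2 of 5 (Aco1 and Fbxl5, both above), against 59.5% of all tested genes, so a lack of overlap was common in these libraries. DESeq2 and limma-voom called 0 of the 5 as well.

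The gene rows held 35183187 to 40859178 reads per library. At this depth the 5 genes had 908 to 2726 counts per library, and a count of 0 would have allowed up to 0.0876 CPM (read counts scaled to library size by TMM). T cell genes (Cd3e, Cd4, Trac) summed to 1389 to 1609 CPM and the iTreg genes Foxp3, Il2ra and Ctla4 to 1995 to 2427 CPM, with Foxp3 at 586.6 and 693.4 CPM in the Mock libraries and lower, at 375.6 and 471.6 CPM, in those with FeSO4. Il2ra (1395 and 1586 CPM against 1481 and 1550 CPM) and Ctla4 (135.5 and 147.1 CPM against 138.3 and 179.1 CPM) were not lower on average. The B cell gene Ms4a1 and the NK cell genes Ncr1 and Klrb1c had 0 or 1 count per library, while Cd79a, also a B cell gene, had 69 to 107. Of the CD8 T cell genes, Cd8b1 had 304 to 361 counts per library and Cd8a 25 to 94. The myeloid gene Lyz2 had 164 counts in Mock 1, 8 in Mock 2 and 0 in both FeSO4 libraries.

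Aco1 (ENSMUSG00000028405, plus strand of chr4:40090114-40146042), the IRP1 gene, was measured at 54.7 and 54.6 CPM in the Mock libraries and at 59.4 and 58.3 CPM in the FeSO4 libraries. Both FeSO4 values were above both Mock values, and the Mock libraries were almost identical. The group levels were 54.7 ± 0.0700 CPM in Mock and 58.9 ± 0.818 CPM with FeSO4 (SD, n = 2, so each SD rests on a single difference). The log2 fold change was 0.11 ± 0.079 (SE) with an adjusted p of 0.388 in edgeR's test. The 95% interval of the fold ran from 0.958 to 1.21. The 95% Wilson intervals of single libraries, which cover counting error only, were 52.51 to 57.06 CPM in Mock 1 and 56.9 to 62.07 CPM in FeSO4 1 and so touched.

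Ireb2 (ENSMUSG00000032293, plus strand of chr9:54711562-54760341), the IRP2 gene, stood at 58.2 and 65.2 CPM in Mock and at 60.7 and 63.3 CPM in FeSO4. Both FeSO4 libraries fell between the Mock libraries, so the groups overlapped fully. The means were 61.7 ± 4.91 CPM and 62.0 ± 1.85 CPM (SD, n = 2). The log2 fold change was 0.0071 ± 0.083 (SE; edgeR adjusted p = 0.969), with a fold interval of 0.889 to 1.14. Among tested genes 2.13% had a smaller absolute fold change. The Wilson intervals of the Mock libraries, 55.94 to 60.64 CPM and 62.79 to 67.68 CPM, did not touch, so the cultures of one group differed by more than counting error. Its sign turned with the scaling, from 0.0071 to −0.058 when only library size was used.

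Aco1 and Ireb2 are paralogs with 67.1% identical aligned coding bases, and their longest shared run was 14 bases, so reads of the usual lengths can be told apart between them. Within a library the ratio of their counts does not depend on scaling. Ireb2 had 1.06 and 1.19 times the counts of Aco1 in Mock and 1.02 and 1.09 times in FeSO4. The ranges overlapped, since Mock 1 lay below FeSO4 2. The mean log2 ratio was 0.17 ± 0.12 in Mock and 0.075 ± 0.063 in FeSO4 (SD, n = 2), a difference of −0.097 (exact two-sided permutation p = 0.667). With 2 libraries against 2 this test cannot go below 0.33. With 1 library left out the difference ran from −0.18 (without Mock replicate 1) to −0.014 (without Mock replicate 2). Between libraries of the same number the log2 ratio differed by −0.059 and −0.135, which was not tested.

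**Figure D1:**
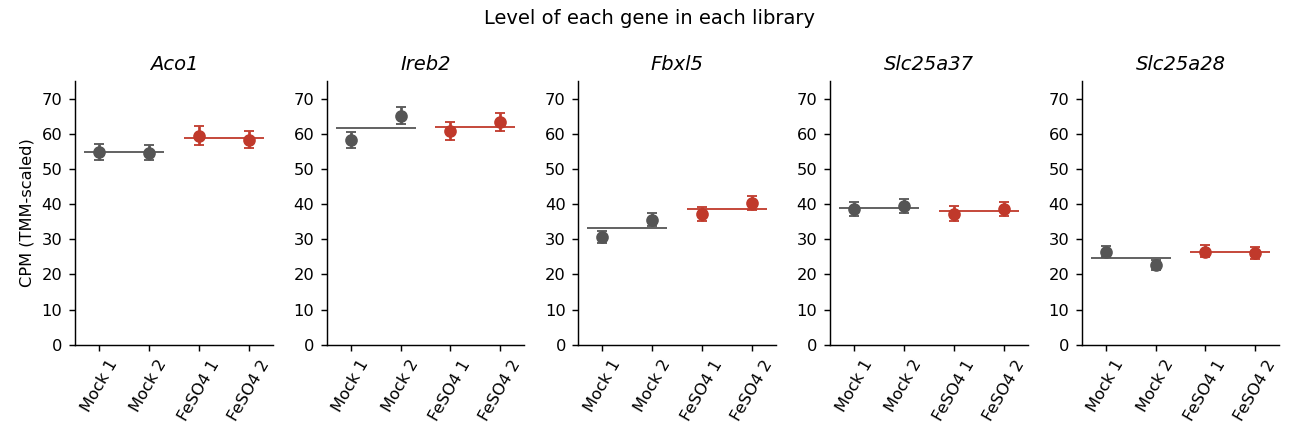
TMM-scaled CPM (linear axis from 0) of Aco1, Ireb2, Fbxl5, Slc25a37 and Slc25a28 in the Mock (grey) and FeSO4 (red) libraries, with 95% Wilson intervals of counting error as bars and group means as horizontal lines. Aco1 and Fbxl5 are the genes whose FeSO4 libraries both lie above both Mock libraries, at 59.4 and 58.3 CPM and at 37.1 and 40.2 CPM, and the groups overlap for the others.

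Fbxl5 (ENSMUSG00000039753, minus strand of chr5:44135855-44212878), the F-box protein gene whose product marks IRP2 for degradation, was at 30.7 and 35.6 CPM in Mock and at 37.1 and 40.2 CPM in FeSO4. Both FeSO4 libraries were above both Mock libraries, although FeSO4 1 exceeded Mock 2 by less than the Mock libraries differed from each other. The means were 33.1 ± 3.46 CPM in Mock and 38.6 ± 2.21 CPM with FeSO4 (SD, n = 2). With all libraries it had the highest fold of the 5 genes, 1.17 with an interval of 1.01 to 1.35. Its log2 fold change of 0.22 ± 0.097 (SE) had an unadjusted p of 0.0368 and an adjusted p of 0.128 in edgeR's test, so it did not pass. A log2 fold change of this absolute size was not unusual, since 54.6% of tested genes had a smaller one.

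The Fbxl5 estimate moved with the Mock library retained. Without Mock replicate 1 it was 0.11 (edgeR adjusted p = 0.579), below the 0.20 of Slc25a28 in that fit, and without Mock replicate 2 it was 0.33 (adjusted p = 0.0777). Over all 13 alternatives, other tools, scalings and filters included, its log2 fold change stayed between 0.11 and 0.33 and its adjusted p between 0.0681 and 0.579. Exons of Fbxl5 overlap those of Bst1, on the opposite strand, over 99 bases. Bst1 had 6 and 0 counts in Mock and 0 and 4 in FeSO4, against 1245 to 1488 for Fbxl5.

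Slc25a37 (ENSMUSG00000034248, minus strand of chr14:69859908-69903160), the mitoferrin 1 gene, was at 38.6 and 39.5 CPM in Mock and at 37.3 and 38.6 CPM in FeSO4. The groups overlapped, with FeSO4 2 just above Mock 1, and the 4 libraries were close to each other. The means were 39.0 ± 0.625 CPM and 38.0 ± 0.960 CPM (SD, n = 2). The log2 fold change was −0.040 ± 0.086 (SE; edgeR adjusted p = 0.797) with a fold interval of 0.857 to 1.10. It was the only one of the 5 with an estimate below 0, and that estimate stayed below 0 in all 13 alternatives, between −0.10 and −0.014, without passing the test in any. In a spliced alignment to the genome its longest transcript matched its own locus in full. It also aligned loosely to chromosome 3, with 1566 matching bases in a block of 3657, mismatches and gaps included. Those matching bases were 37.6% of the transcript. The effect of that stretch on the counts was not tested. The other 4 genes matched their own locus alone.

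Because mitoferrin 1 is known from erythroid cells, erythroid genes were read beside it. Of 6 such markers, 2 had 0 counts in all libraries, Slc4a1 among them, and Klf1, Epor and Alas2 had 0 to 16 counts. Hba-a1, a globin gene, was at 24.5 and 19.6 CPM in Mock and at 37.5 and 32.5 CPM in FeSO4, above Mock in both libraries. It made up nearly all of the erythroid sum, 19.97 to 24.99 CPM in Mock and 32.85 to 37.77 CPM in FeSO4. Over the same libraries the mean CPM of Slc25a37 was no higher in FeSO4 than in Mock. Whether RNA from other cells had a part in either value was not tested.

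Slc25a28 (ENSMUSG00000040414, minus strand of chr19:43738312-43749371), the gene of the broadly expressed mitoferrin 2, was at 26.4 and 22.7 CPM in Mock and at 26.5 and 26.1 CPM in FeSO4. Mock 2 stood below the other libraries, and Mock 1 fell between the FeSO4 libraries, so the groups overlapped. The means were 24.6 ± 2.64 CPM and 26.3 ± 0.288 CPM (SD, n = 2). The log2 fold change was 0.099 ± 0.10 (SE; edgeR adjusted p = 0.555) with a fold interval of 0.920 to 1.25. Without Mock replicate 2 the estimate was −0.0075, and without Mock replicate 1 it was 0.20, so its sign rested on which Mock library was used. The Wilson intervals of the Mock libraries, 24.89 to 28.05 CPM and 21.29 to 24.18 CPM, did not touch.

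The mitoferrin genes share 73.5% of aligned coding bases and no run longer than 15 bases. Slc25a28 had 0.685 and 0.575 times the counts of Slc25a37 in Mock and 0.711 and 0.676 times in FeSO4. Mock 1 lay between the FeSO4 libraries and Mock 2 below them. The mean log2 ratio was −0.67 ± 0.18 in Mock and −0.53 ± 0.052 in FeSO4 (SD, n = 2), and the difference of 0.14 had an exact two-sided permutation p of 0.667, again with 0.33 as the smallest possible. With 1 library left out the difference ran from 0.017 (without Mock replicate 2) to 0.27 (without Mock replicate 1). Same-numbered libraries differed by 0.054 and 0.23 in this log2 ratio, also untested.

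**Figure D2:**
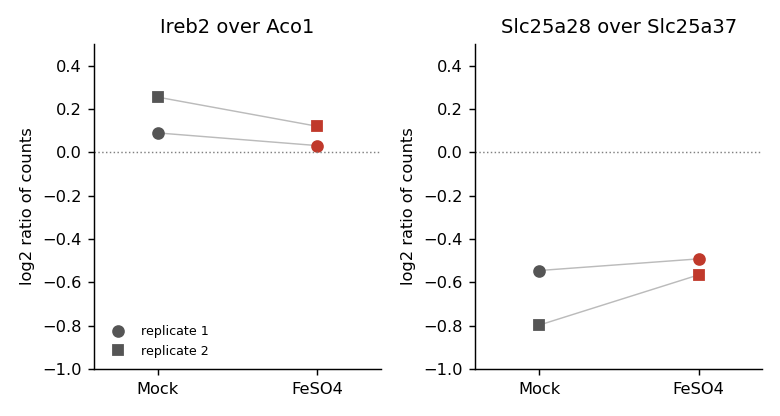
Log2 ratio of raw counts within each library for Ireb2 over Aco1 (left) and Slc25a28 over Slc25a37 (right), in Mock and FeSO4. Grey lines join libraries with the same replicate number, which the labels do not call pairs. The Ireb2 to Aco1 ratio is above 0 in all 4 libraries (0.031 to 0.25) and the mitoferrin ratio below 0 in all 4 (−0.80 to −0.49), with overlapping groups in both.

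Levels between genes were compared per kilobase of exon. Slc25a28 was highest, at 15.0 to 17.5 CPM per kb over the 4 libraries, followed by Aco1 at 10.5 to 11.4 CPM per kb and Ireb2 at 10.03 to 11.2 CPM per kb, whose ranges overlapped. Slc25a37 was at 8.96 to 9.48 CPM per kb and Fbxl5 lowest at 3.14 to 4.11 CPM per kb. The order by counts and by levels per kb thus differed for the mitoferrins, with Slc25a37 higher in counts and Slc25a28 higher per kb. The lengths carry an error of their own. Slc25a28 has 1 transcript model of 1514 bases with a 3′ UTR of 304 bases, against 2983 for Slc25a37, and the 7 models of Fbxl5 add up to 9788 bases of exon while the longest has 4236. Per kb of the longest transcript, Fbxl5 was at 7.24 to 9.49 and overlapped Slc25a37, and Aco1 was at 12.6 to 13.7, above Ireb2. In CPM all 5 genes were in the upper part of the tested genes, from the 52.4th percentile (Slc25a28) to the 72.7th (Ireb2).

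**Figure D3:**
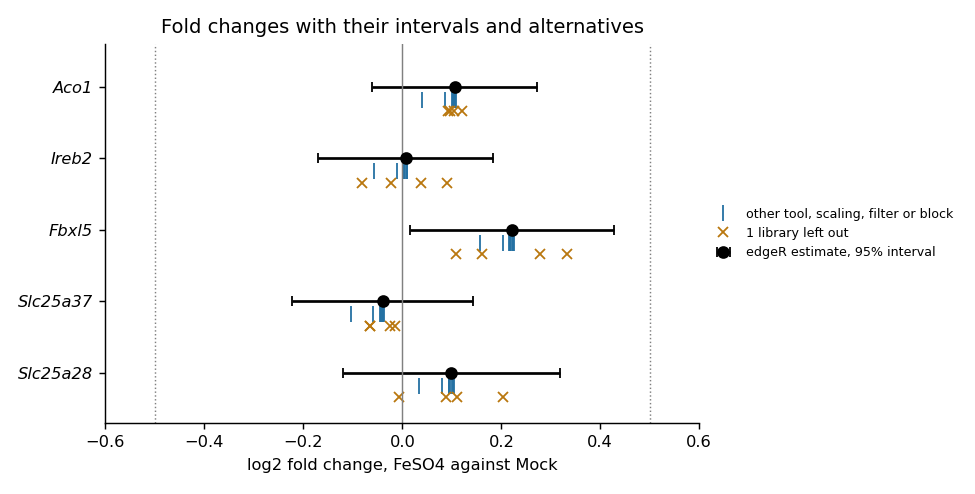
Log2 fold change of each gene, FeSO4 against Mock, with its 95% interval from edgeR (black), the estimates under another tool, scaling, filter or block (blue ticks) and those with 1 library left out (orange crosses). Dotted lines mark an absolute log2 fold change of 0.5, which no interval reaches, and the interval of Fbxl5, 0.015 to 0.43, is the only one above 0.

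No 95% interval of the 5 genes reached an absolute log2 fold change of 0.5. The upper bounds were 0.27 for Aco1, 0.18 for Ireb2, 0.43 for Fbxl5, 0.14 for Slc25a37 and 0.32 for Slc25a28, and the lower bounds −0.061, −0.17, 0.015, −0.22 and −0.12. Over all tested genes the median absolute log2 fold change was 0.20, and over called genes it was 0.39.

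Genes whose values over the 4 libraries came nearest to each of the 5 were found by the root mean square distance of centred log2 CPM among 8433 genes of at least 10 CPM, as a description. Aco1 was nearest to Afg3l1, Mrfap1 and Top2a (distances 0.0036 to 0.0061), and Ireb2 to Nsd1, Ndufaf4 and Hps6 (0.0069 to 0.0084). Fbxl5 was nearest to Mkks, Polr3f and Csnk1g3 (0.0084 to 0.017). The mitoferrin genes were nearest to Zfp410, Gmcl1 and Setd5 (Slc25a37, 0.0038 to 0.0091) and to Hint2, Tfpt and Tbl2 (Slc25a28, 0.0064 to 0.0094). The 5 genes themselves lay 0.029 (Slc25a37) to 0.14 (Fbxl5) from a flat line.

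Transcripts listed from general knowledge as carrying an IRE were counted next. Among them, Slc11a2, Epas1, Cdc14a and Cdc42bpa lacked the strict pattern described above. Of 8 tested IRE transcripts, 3 were higher in FeSO4, 0 lower and 5 not called, or 37.5% called against 19.5% of all tested genes (10.6% higher), with a median log2 fold change of 0.082 against −0.00046. Fth1, the ferritin heavy chain gene, rose from 794.6 ± 65.5 to 1044 ± 6.87 CPM (log2 fold change 0.39 ± 0.063, edgeR adjusted p = 0.00055). Ftl1, the ferritin light chain gene, rose by 0.26 ± 0.062 (adjusted p = 0.00759), a call lost without Mock replicate 2 (0.064) or FeSO4 replicate 1 (0.078). Both ferritin genes are known to have processed pseudogenes, which could take or void reads. Their effect on the counts of Fth1 and Ftl1 was not tested. Cdc14a, a phosphatase gene, rose by 0.41 ± 0.11 (adjusted p = 0.0157), a call lost without Mock replicate 1 (0.103), Mock replicate 2 (0.0563) or FeSO4 replicate 2 (0.0507).

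The IRE transcripts that did not pass included the best known IRP target. Tfrc, the transferrin receptor gene with the 3′ UTR sites shown above, had 469.2 and 519.2 CPM in the Mock libraries and 572.3 and 506.7 CPM with FeSO4, which overlap (log2 fold change 0.13 ± 0.071, edgeR adjusted p = 0.24). With 1 library left out the Tfrc estimate ran from 0.036 (without FeSO4 replicate 1) to 0.21 (without FeSO4 replicate 2), and it was 0.045 without Mock replicate 1 and 0.20 without Mock replicate 2. Slc11a2, a ferrous iron transporter gene, was at 38.7 ± 1.01 and 32.0 ± 3.91 CPM (−0.28 ± 0.098, adjusted p = 0.0604). It passed in 5 alternatives, with adjusted p of 0.022 (library size only), 0.0437 (upper quartile), 0.045 (at least 10 counts in every library), 0.0405 (replicate block) and 0.013 (without FeSO4 replicate 1). Without FeSO4 replicate 2 its log2 fold change was −0.16 (adjusted p = 0.416), and without Mock replicate 2 it was −0.25 (adjusted p = 0.222). Epas1, the gene of HIF-2α, was low at 0.963 to 1.72 CPM (−0.32 ± 0.40, adjusted p = 0.63), and with 1 library left out its estimate ran from −0.64 (without FeSO4 replicate 2) to −0.069 (without FeSO4 replicate 1). Slc40a1, the iron exporter gene, with 20, 0, 4 and 0 counts in Mock 1, Mock 2, FeSO4 1 and FeSO4 2, was too low to test, as was Alas2. Without Mock replicate 2 the list had 1 call in place of 3.

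The genes that act with FBXL5 were the SCF ligase subunits, their activators and Herc2, a ligase known to act on FBXL5 itself. Of 7 tested, 3 were higher, 1 lower and 3 not called (median log2 fold change 0.16), against 19.5% called over all tested genes. The groups did not overlap in any of the 7, as in 59.5% of all tested genes. Herc2 fell from 177.5 ± 24.6 to 129.6 ± 8.52 CPM (log2 fold change −0.45 ± 0.085, edgeR adjusted p = 0.0018), and was called in all alternatives run. Rbx1, the RING subunit, rose by 0.31 ± 0.076 (adjusted p = 0.0109, and 0.086 without Mock replicate 2). Skp1a, the adaptor that holds the F-box protein, rose by 0.21 ± 0.064 (adjusted p = 0.0326), and Nedd8, the modifier that switches the cullin on, by 0.22 ± 0.068 (adjusted p = 0.0333). Both calls were lost with any 1 library left out (adjusted p 0.0534 to 0.142 for Skp1a and 0.0687 to 0.18 for Nedd8) and with library size only (0.128 and 0.12), and that of Skp1a with upper quartile scaling (0.0503). Cul1, the scaffold, had a log2 fold change of 0.050 ± 0.068 (adjusted p = 0.67). The list held 1 call without Mock replicate 2 and 2 calls without each other library or with library size only, in place of 4.

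The cytosolic assembly machinery, which supplies the iron-sulfur cluster of IRP1, had 1 of 11 tested genes higher, 1 lower and 9 not called (median log2 fold change 0.092), so 18.2% were called, near the 19.5% of all tested genes. Fam96a, whose product is known to act on the iron regulatory proteins, rose from 61.3 ± 0.424 to 77.2 ± 0.0535 CPM (log2 fold change 0.33 ± 0.075, edgeR adjusted p = 0.00612). It was called in all alternatives run. Ndor1, a reductase that passes electrons to the machinery, fell by 0.30 on the log2 scale (adjusted p = 0.0158), a call lost without Mock replicate 2 (0.0602) or FeSO4 replicate 2 (0.131). The number of calls went from 2 to 4 with at least 10 counts in every library, with the replicate block and with robust fitting, and to 1 without Mock replicate 2.

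The mitochondrial users of the iron that mitoferrins import were counted in the same way. Of 15 tested genes of mitochondrial iron-sulfur assembly, 1 was higher, 0 lower and 14 not called (median log2 fold change 0.076), so 6.67% were called against 19.5% of all tested genes. Bola3, a factor that hands clusters to target enzymes, rose by 0.30 ± 0.088 (edgeR adjusted p = 0.0276). That call was lost with any 1 library left out (0.051 to 0.115) and with library size only (0.0748). Iscu, the scaffold, had a log2 fold change of −0.049 ± 0.078 (adjusted p = 0.717).

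Of 11 tested genes of heme synthesis and mitoferrin partners, 2 were higher, 0 lower and 9 not called (median log2 fold change 0.11), a share of 18.2% against 19.5% of all tested genes. Cpox, an oxidase late in heme synthesis, rose from 67.7 ± 5.56 to 116.4 ± 4.98 CPM (log2 fold change 0.78 ± 0.078, edgeR adjusted p = 8.46e-06) and was called in all alternatives run. Abcb10, a mitochondrial transporter that binds and stabilises mitoferrin 1, rose from 11.4 ± 0.444 to 15.8 ± 0.704 CPM (0.48 ± 0.13, adjusted p = 0.0167). Its call was lost without Mock replicate 1 (0.0942), Mock replicate 2 (0.0597) or FeSO4 replicate 2 (0.0861), and without either of the last 2 the list had 1 call. Fech, the gene of ferrochelatase, which inserts iron into protoporphyrin to form heme, had a log2 fold change of −0.040 ± 0.083 (adjusted p = 0.786).

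Of 7 tested genes of cytosolic iron supply and storage, 1 was higher, 1 lower and 5 not called (median log2 fold change 0.13), a share of 28.6% against 19.5%. Hmox1, the heme oxygenase gene, rose from 9.28 ± 0.0248 to 14.9 ± 2.08 CPM (log2 fold change 0.68 ± 0.14, edgeR adjusted p = 0.00407, and 0.0525 without FeSO4 replicate 1). Slc39a14, an importer of iron not bound to transferrin, fell by 0.39 on the log2 scale (adjusted p = 0.0187), a call lost without Mock replicate 1 (0.114), Mock replicate 2 (0.0508) or FeSO4 replicate 1 (0.0933). The list had 0 calls without FeSO4 replicate 1 and 1 without either Mock library. Ncoa4, the receptor that takes ferritin to lysosomes, had a log2 fold change of 0.13 ± 0.086 (adjusted p = 0.325). Over these 6 lists together, 11 of 59 tested genes were higher, 3 lower and 45 not called, against 10.6% higher and 8.89% lower over all tested genes. The counts were 4 higher and 1 lower without Mock replicate 2, 6 and 3 without FeSO4 replicate 1, and 8 and 4 with library size only. They were 15 and 4 with the replicate block, 13 and 4 with at least 10 counts in every library, and 13 and 3 with robust fitting. The calls over all tested genes moved as well, from 1455 higher and 1221 lower to 939 and 1748 with library size only. With the replicate block they were 1743 and 1467.

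**Figure D4:**
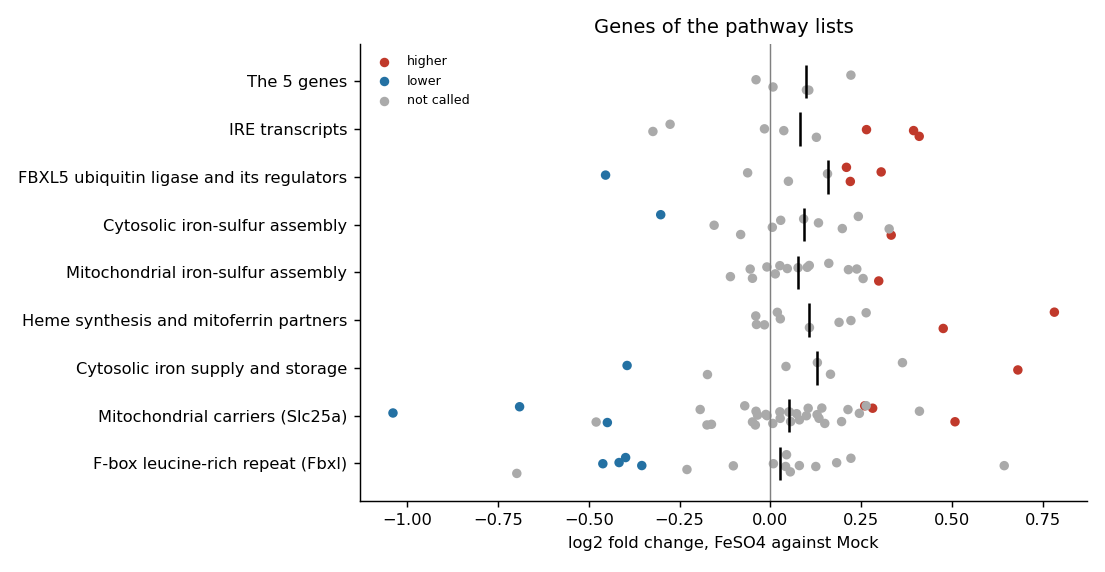
Log2 fold change (FeSO4 against Mock) of each tested gene of the 5 genes, the 6 pathway lists and both gene families, with black bars for the median of each list and colours for genes called higher (red), called lower (blue) or not called (grey). None of the 5 genes is coloured, 11 of the 59 pathway genes are red and 3 are blue, and over all tested genes 19.5% were called.

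The gene families of the carriers and the F-box protein were the last comparison. Of 36 tested Slc25a genes, the mitochondrial carriers to which both mitoferrins belong, 3 were higher, 3 lower and 30 not called (median log2 fold change 0.052), so 16.7% were called, near the 19.5% of all tested genes. Slc25a20, the carnitine carrier gene, fell by 0.69 on the log2 scale (edgeR adjusted p = 7.86e-05), and Slc25a1, the citrate carrier gene, rose by 0.51 (adjusted p = 0.000866). By mean CPM per kb in Mock, Slc25a28 ranked 11 and Slc25a37 ranked 18 of the 36. Of 16 tested Fbxl genes, to which Fbxl5 belongs, 0 were higher, 4 lower and 12 not called (median 0.025), against 10.6% higher and 8.89% lower over all tested genes. The lower ones were Fbxl20 (−0.46, adjusted p = 0.00346), Fbxl19 (−0.42, 0.00878), Fbxl18 (−0.40, 0.0152) and Fbxl12 (−0.35, 0.0281). The calls of Fbxl19 without Mock replicate 1 (0.0682), of Fbxl18 without Mock replicate 2 (0.128) and of Fbxl12 with any 1 library left out (0.0696 to 0.124) were lost, and without either Mock library the family had 2 calls. With the replicate block it had 6.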

How the data were processed

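RNA-seq libraries of iTreg cultures, 2 Mock and 2 FeSO4, were grouped by their labels. The authors deposited raw read counts per Ensembl gene, not normalized, 1 column per library. According to the methods the authors used STAR on mm9 and DESeq, whereas the submitters' processing notes name Trim Galore 0.6.7, STAR 2.7.9a, featureCounts and mm10. The closing entries of the counts carry the names that htseq-count writes, so which counter made them is unclear. Annotation and strand setting are not given in the sources used here. Positions, exon lengths and transcripts come from GENCODE M1 (NCBIM37), so they may differ from the annotation counted. Symbols were matched for 32799 IDs, and the other 14930 held 0.755% of counts.

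The 5 closing entries, reads without a gene, entered neither library sizes nor tests: 4.36 to 6.03% of a library had no feature, 3.78 to 3.91% were ambiguous, 0.802 to 0.988% of low alignment quality, 1.8 to 2.31% unaligned and 4.27 to 4.62% aligned more than once. Libraries of a group differed by more than sampling noise (chi-square per degree of freedom 11.4 in Mock and 9.35 in FeSO4). The methods speak of independent experiments, but the labels do not tie libraries to them, and p-values measure the spread between these samples.

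In R 4.3.3, edgeR 4.0.16 kept 13732 genes by filterByExpr (99.95% of counts), scaled them by TMM and applied the quasi-likelihood test with Benjamini-Hochberg adjustment over all of them. Each SE is the log2 fold change over the square root of F. Calls use an adjusted p under 0.05. The fit was tested on simulated data. Paralogs were aligned globally, and transcripts were placed with minimap2 2.31. Alternatives were DESeq2 1.42.0, limma-voom (limma 3.58.1), a block for the replicate number, other scalings and filters, and each library left out.

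The 5 genes and the gene lists were chosen with earlier results of these data known. The text names the 5 genes, at most 4 called genes of smallest p per list, the main IRE transcripts and the 3 nearest profiles. Other genes with values (Cul1, Iscu, Fech, Ncoa4, Bst1, Alas2 and the markers) stand outside that rule and were picked for their role after values were seen. Most other genes of the lists enter the counts and medians without being named.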

Additional observations from a re-analysis of the deposited data

Results flagged for a closer look

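Reads that were assigned to no gene stood outside the comparisons, and 2 classes of them had shares in FeSO4 that lay above the range of Mock, which was not tested. Low alignment quality accounted for 0.802 and 0.929% of reads in Mock and for 0.978 and 0.988% with FeSO4, a difference of the means of 0.118 percentage points. Reads with more than 1 alignment made up 4.42 and 4.27% in Mock and 4.60 and 4.62% in FeSO4, a difference of 0.264 percentage points. Reads without a feature went the other way, at 5.31 and 6.03% in Mock and 4.36 and 5.21% with FeSO4, also with no overlap. None of these classes enters the counts of Aco1, Ireb2, Fbxl5, Slc25a37 or Slc25a28.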

How the results depend on the processing

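None of the 5 genes was called under any of the 13 alternatives, and the log2 fold changes of Aco1 (0.041 to 0.12), Fbxl5 and Slc25a37 kept their sign in all of them. That of Ireb2 was −0.058 with library size only and −0.011 with upper quartile scaling, and with a library left out it ran from −0.082 to 0.090. That of Slc25a28 ran from −0.0075 to 0.20 with a library left out. Of all tested genes 2676 were called, 1472 to 2242 with a library left out (fewest without Mock replicate 2), and 1380 by the study's threshold. That threshold was applied to the p of edgeR, not to the DESeq2 p of the study. Of the calls at an adjusted p under 0.05, 54.4% were higher, against 34.9% with library size only and 47.7% with upper quartile scaling. Library size only moved the median of all genes by −0.065. With the replicate number as a block, 3210 genes were called (1743 higher, 1467 lower) and the adjusted p of Fbxl5 was 0.0681. Same-numbered libraries deviated together with r = 0.029 over 13732 genes and r = 0.22 over 8522 genes of at least 10 CPM, and since the labels do not say that the numbers mark pairs, the block was kept as an alternative. The cause of these differences was not tested. Robust fitting, nearest profiles under library size only and lengths from the longest transcript were chosen after seeing the data. With 2 libraries per group the SDs and exact tests are weak, and where a library was left out the lone one was assumed to vary like the other group. The counts show RNA, not protein, and the switches of IRP1, IRP2 and FBXL5 are known mainly at the protein level.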
